A study of Mus musculus with 21 samples.

Results

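The dystrophin complex was followed at the mRNA level in mouse brain through 9 genes, Sspn, Dmd, Utrn, Dag1, Sntb1, Dtna, Dtnb, Sgcb and Sgce, found by symbol among the 16318 genes of the count table. All 9 were present, and all 9 passed the filter on low counts that left 16303 genes for testing. The set was chosen by the measured treatment difference of Sspn, which was already known to be among the clearest decreases in these same mice, together with genes of the same complex, so the treatment difference of the 9 genes is given below as a description without a test. Tests were kept for what the choice of genes did not use, namely sex, the treatment by sex interaction and variation among control mice. Other genes of the pathway were also tested for treatment, but their lists were made with earlier results of these data known.

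RNA came from whole brains of SAMP8 mice (senescence-accelerated mouse prone 8, a strain that ages early and is used as a model of sporadic Alzheimer's disease). From 4 months of age the mice were dosed subcutaneously every other day for 8 weeks, either with HsTX1[R14A] at 1 mg/kg in PBS or with PBS alone, and brains were taken at 6 months. HsTX1[R14A] is an analogue of a scorpion toxin peptide that blocks the potassium channel Kv1.3. There were 12 PBS mice (6 female, 6 male) and 9 HsTX1[R14A] mice (3 female, 6 male), with 1 library per mouse. All 21 were SAMP8, so no mouse of another strain served as a reference, and the labels set the 2 arms apart by the agent injected.

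Dystrophin (Dmd) and its autosomal relative utrophin (Utrn) tie the actin cytoskeleton to dystroglycan, which is made as 1 precursor from Dag1 and cut into an outer alpha chain that binds laminin and a beta chain that crosses the membrane. Sarcoglycans (here Sgcb and Sgce) and the tetraspan-like protein sarcospan (Sspn) form a side complex in the membrane, while dystrobrevins (Dtna, Dtnb) and syntrophins (here Sntb1) form the cytoplasmic scaffold. In brain the complex is known from astrocyte endfeet around blood vessels, where it anchors aquaporin-4 and Kir4.1 (Kcnj10), from the vessel wall, and from inhibitory synapses of neurons.

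A set of 3 upstream sequences is printed because Sspn had the largest decrease among the 9 genes, whereas Dag1 and Dtnb varied together among control mice. RefSeq (GRCm38.p6) listed starts for 6 of the 9 genes, 12 in all, and had no entry for Sntb1, Dtna and Sgce. Each stretch runs from 250 to 11 bases before a start, 5′ to 3′ on the gene's strand, with capitals marking CCAAT or GGGCGG read on either strand. It lies on chr6:145933872-145934111 (plus strand, inside an intron of another Sspn transcript) for Sspn, on chr9:108263969-108264208 (minus strand) for Dag1, and on chr12:3572141-3572380 (plus strand) for Dtnb.
Sspn: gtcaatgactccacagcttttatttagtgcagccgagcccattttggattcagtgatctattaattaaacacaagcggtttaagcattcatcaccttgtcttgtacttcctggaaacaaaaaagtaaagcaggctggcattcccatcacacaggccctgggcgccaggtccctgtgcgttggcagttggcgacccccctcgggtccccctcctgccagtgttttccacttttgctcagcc
Dag1: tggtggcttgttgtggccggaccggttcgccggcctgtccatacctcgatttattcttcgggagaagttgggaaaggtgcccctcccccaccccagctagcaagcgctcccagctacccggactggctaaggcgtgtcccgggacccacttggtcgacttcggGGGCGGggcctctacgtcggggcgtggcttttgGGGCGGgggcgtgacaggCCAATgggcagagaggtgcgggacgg
Dtnb: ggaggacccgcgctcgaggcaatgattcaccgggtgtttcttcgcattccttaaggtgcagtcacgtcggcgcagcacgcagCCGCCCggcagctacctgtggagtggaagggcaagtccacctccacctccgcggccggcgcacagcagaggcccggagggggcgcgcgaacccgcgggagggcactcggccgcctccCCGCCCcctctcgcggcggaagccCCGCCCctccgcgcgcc

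The Sspn stretch held 6 CpG dinucleotides and 50.8% GC, near the medians of 5 and 52.1% over 32851 mouse promoters of the same length. The Dag1 stretch was richer, with 20 CpG and 66.7% GC, 2 copies of GGGCGG and 1 of CCAAT. The Dtnb stretch was the richest of the 3, with 31 CpG and 73.3% GC and 3 copies of GGGCGG. On either strand, 31.3% of these promoters hold GGGCGG and 33.0% hold CCAAT, and neither was found in the Sspn stretch. A match is a string of letters and not a measured site. The stretch before the other listed Sspn start had 2 CpG, 47.9% GC and 1 CCAAT. That before the other Dag1 start had 33 CpG and 73.75% GC, and those before the other Dtnb starts had 23 to 34 CpG. The order of Dag1 and Dtnb therefore depends on the start printed.

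The genes lie on 8 chromosomes of GRCm38. Dmd spans X:82948870-85206141 and Utrn spans 10:12382188-12869365. Sspn lies at 6:145931641-145965223 and Sgce on the same chromosome at 6:4674350-4747207. Dag1 lies at 9:108204634-108263958, Sntb1 at 15:55636388-55906949, Dtna at 18:23415135-23659715, Dtnb at 12:3572381-3781796 and Sgcb at 5:73632749-73647790. The longest coding transcripts range from 1776 bases (Sgce) to 14910 bases with 79 exons (Dmd). Counts were summed per gene, so the short and long products of Dmd and Utrn, which start from separate promoters, could not be separated. Antisense genes overlap Sspn (Sspnos), Dtna (Gm47898) and Dtnb (Dtnbos), and none of them was in the count table.

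Library totals ran from 14917174 to 36207554 counts in the PBS mice and from 17552413 to 47613792 in the HsTX1[R14A] mice, and the 9 genes had 24 to 5647 estimated counts in a mouse. As a check of the tissue, summed levels over 6 neuronal markers ran from 3649 to 7416 CPM (scaled counts relative to library size) and over 6 astrocyte markers from 1438 to 2339 CPM, with no marker at 0 in any mouse. Of 6 skeletal muscle markers, where the complex is best known, Acta1 and Myh4 were in the table, with a summed level of 4.49 to 10.6 CPM. In the table's headers the libraries carry a name that starts with SAMP8 (10 PBS, 5 HsTX1[R14A]) or with SAMP alone (2 PBS, 4 HsTX1[R14A]), and what separates the forms is not given in the sources used here. Libraries also differed in a length slope, the change of log2 CPM, centred on each gene's mean, per doubling of transcript length. It ran from -0.38 to 0.15 (median -0.02) in PBS mice and from -0.14 to 0.23 (median 0.15) in HsTX1[R14A] mice, so that most HsTX1[R14A] libraries lay above most PBS libraries.

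The levels of the 9 genes in control brain were set per kilobase of the longest coding transcript. Sgcb (beta-sarcoglycan) stood at 16.01 ± 1.18 CPM per kb (SD, n = 12 PBS mice), Sgce (epsilon-sarcoglycan, the sarcoglycan best known in brain) at 15.94 ± 1.498, and Dtna (alpha-dystrobrevin) at 15.7 ± 2.16. Sgcb exceeded Sgce in 6 of 12 mice and Sgce exceeded Dtna in 6 of 12, so these 3 did not differ beyond their spread. Dtnb (beta-dystrobrevin, the form of neurons) stood at 11.5 ± 1.43 and Dag1 at 9.93 ± 3.06, in that order in 9 of 12 mice. Below them the order was the same in all 12 mice and the ranges did not overlap, with Utrn at 5.47 ± 0.415, Dmd at 3.15 ± 0.5001, Sspn at 1.46 ± 0.208 and Sntb1 (beta-1-syntrophin) at 0.420 ± 0.135 CPM per kb. This order and the likeness of the first 3 hold for the longest transcripts and not for other lengths. Per kilobase of the shortest coding transcript Dtna stood first at 276 ± 37.9 CPM per kb, then Dag1 at 119 ± 36.75, Dtnb at 110.5 ± 13.75 and Utrn at 103 ± 7.78. On that scale Dmd stood at 25.3 ± 4.01, Sgce at 18.6 ± 1.75, Sgcb at 16.01 ± 1.18, Sntb1 at 1.69 ± 0.543 and Sspn at 1.496 ± 0.212 CPM per kb.

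**Figure D1:**
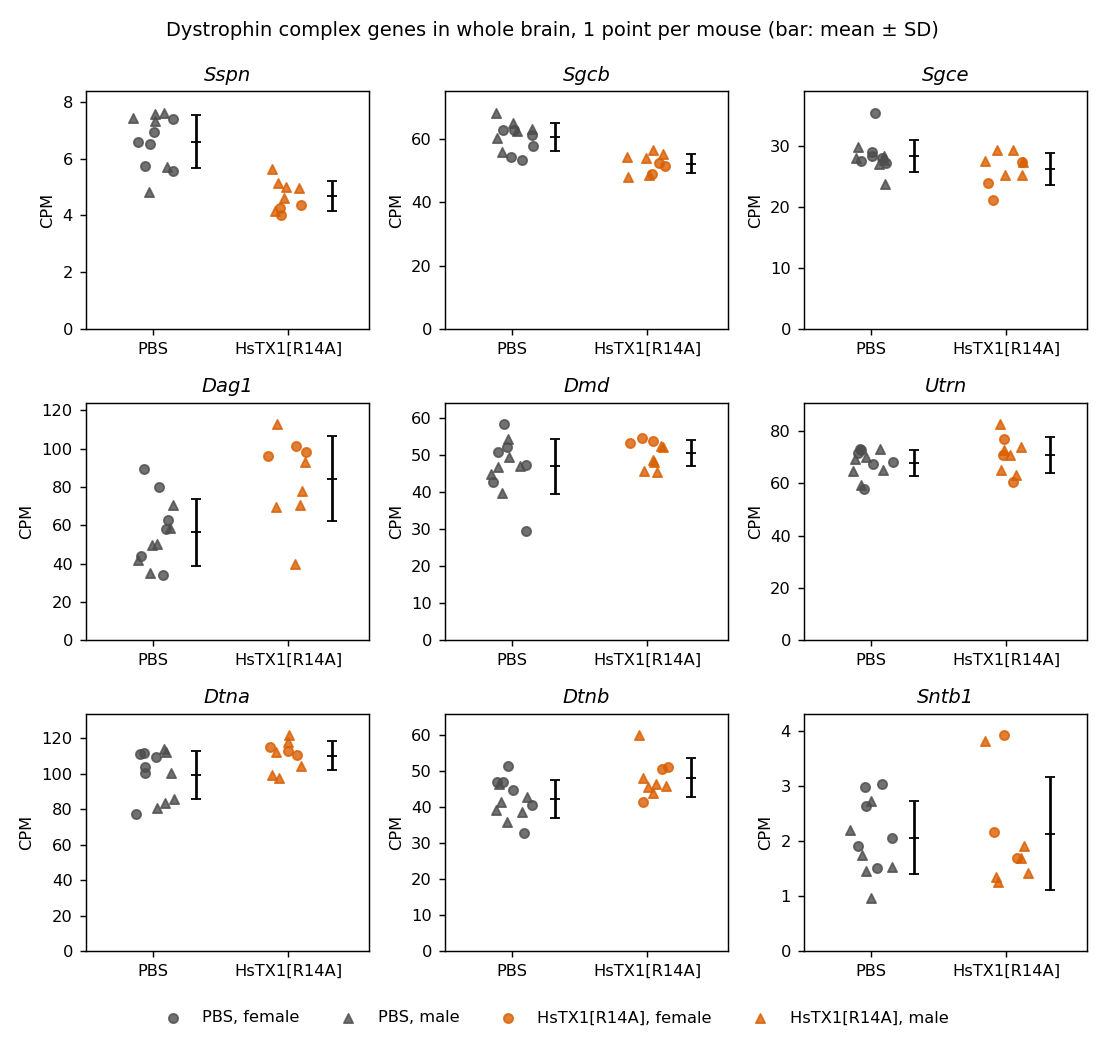
Level of each of the 9 genes in CPM (vertical axes, from 0) in the PBS and HsTX1[R14A] mice, with 1 point per mouse, circles for females, triangles for males and bars for the mean ± SD. All 9 HsTX1[R14A] mice lie below the PBS median for Sspn and for Sgcb, and 8 of 9 lie above it for Dag1, while the 2 arms overlap for every gene.

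Sspn, which sits with the sarcoglycans in the membrane, was the gene with the largest decrease of the 9. In PBS mice its level ran from 4.84 CPM through a median of 6.78 to 7.61 CPM, and in HsTX1[R14A] mice from 4.03 through 4.603 to 5.64 CPM. Of the 9 HsTX1[R14A] mice, 5 lay below every PBS mouse, and 10 of the 12 PBS mice lay above every HsTX1[R14A] mouse, so the groups overlapped through a few mice. The means were 6.60 ± 0.937 (SD, n = 12) and 4.68 ± 0.537 CPM (n = 9), and the fitted log2 fold change was -0.52 with a standard error of 0.09, or a level 0.700 times that of PBS. Sspn is carried in these brains at a low level, and in bulk tissue fewer cells of a type and less RNA per cell cannot be told apart.

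The sarcoglycans lay on the same side as Sspn, by less. Sgcb ran from 53.3 through 61.8 to 68.2 CPM in PBS mice and from 48.1 through 52.5 to 56.5 CPM in HsTX1[R14A] mice. All 9 HsTX1[R14A] mice were below the PBS median and 9 of 12 PBS mice were above every HsTX1[R14A] mouse. Its log2 fold change was -0.23 (SE 0.05), the smallest standard error of the set. Sgce ran from 23.7 through 27.99 to 35.3 CPM in PBS mice and from 21.1 through 27.3 to 29.3 CPM in HsTX1[R14A] mice, with a log2 fold change of -0.11 (SE 0.07), and 7 of 9 HsTX1[R14A] mice lay below the PBS median.

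Dag1, the dystroglycan precursor that joins the inner and outer sides of the complex, differed the other way and by the largest amount. Its level ran from 33.8 through 54.1 to 89.5 CPM in PBS mice and from 39.9 through 92.8 to 113 CPM in HsTX1[R14A] mice. Above every PBS mouse lay 5 HsTX1[R14A] mice, and the lowest HsTX1[R14A] mouse, male 93, whose length slope of -0.14 was the lowest of its arm, lay among the lowest PBS mice. The means were 56.3 ± 17.3 and 84.4 ± 22.2 CPM, and the fitted log2 fold change was 0.63 (SE 0.17), or 1.55-fold. Its coefficient of variation among PBS mice was 30.8%, against 14.2% for Sspn and 7.39% for Sgcb.

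The intracellular links to actin had differences close to the size of their errors. Dmd ran from 29.6 through 47.2 to 58.4 CPM in PBS mice and from 45.4 through 52.2 to 54.7 CPM in HsTX1[R14A] mice, so that the treated range lay inside the PBS range. Its log2 fold change was 0.11 (SE 0.09). Utrn, which can stand in for dystrophin in muscle, ran from 57.9 through 68.8 to 73.1 CPM and from 60.5 through 71.0 to 82.6 CPM, with a log2 fold change of 0.06 (SE 0.06).

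The dystrobrevins lay slightly higher in HsTX1[R14A] mice. Dtna, the glial form, ran from 77.4 through 102 to 114 CPM in PBS mice and from 97.3 through 112 to 122 CPM in HsTX1[R14A] mice, with a log2 fold change of 0.16 (SE 0.08). Dtnb ran from 33.0 through 42.2 to 51.6 CPM and from 41.6 through 46.6 to 60.0 CPM, with a log2 fold change of 0.19 (SE 0.08). For Dtna 3 HsTX1[R14A] mice exceeded every PBS mouse, and for Dtnb 1 did so. Sntb1, the least abundant of the 9, ran from 0.974 through 1.99 to 3.04 CPM and from 1.26 through 1.70 to 3.93 CPM. Its median was lower and its mean was higher in the treated mice (2.14 ± 1.02 against 2.07 ± 0.666 CPM), and its log2 fold change of 0.14 was smaller than its standard error of 0.22.

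Across all genes tested, 31.6% passed an FDR of 0.05 for treatment (edgeR's quasi-likelihood test with sex as covariate), 15.5% higher and 16.1% lower in HsTX1[R14A] mice. Of the 9 genes, 3 were past it, Dag1 among the higher and Sspn and Sgcb among the lower. The other 6 were not past it. The median log2 fold change was 0.11 over the 9 genes and -0.01 over all genes. Because this contrast was part of how the set was chosen, nothing is read from these counts.

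**Figure D2:**
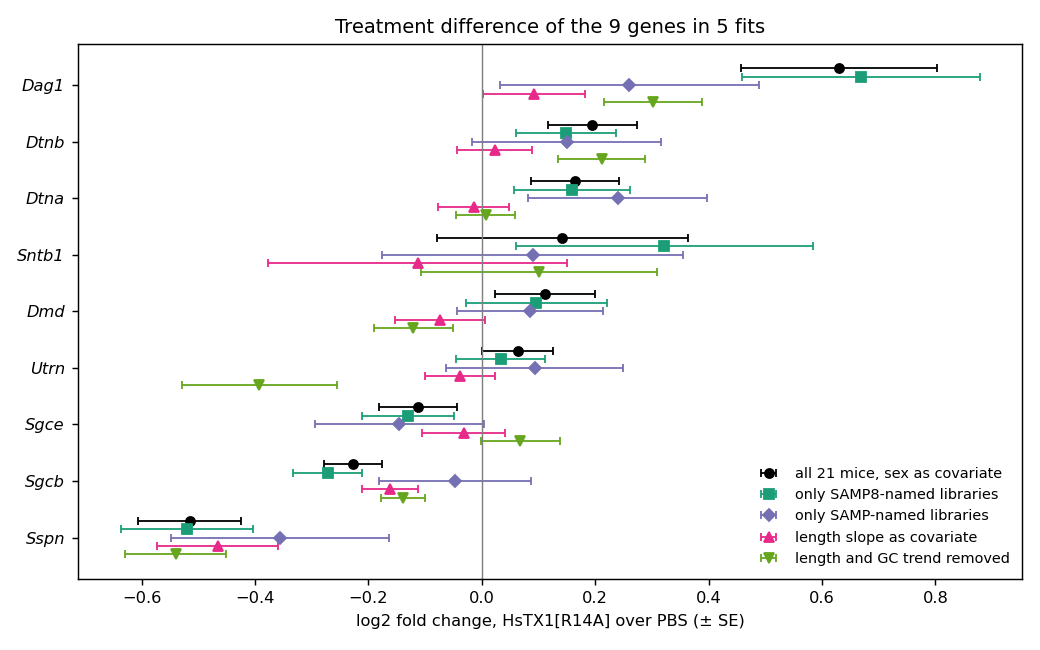
Treatment difference, HsTX1[R14A] over PBS, on a log2 scale (horizontal axis, ± SE) for the 9 genes in 5 fits, namely all 21 mice, either name form of the libraries alone, the length slope as a covariate, and the length and GC trend removed. Sspn stays between -0.54 and -0.36 in these fits, whereas Dag1 goes from 0.63 to 0.09 with the slope as covariate.

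Fits that account for the length slope of the library gave a like value for Sspn and a smaller one for Dag1. With the slope as covariate the log2 fold change of Sspn was -0.47 (SE 0.11), and with each library's trend on length and GC content removed it was -0.54 (SE 0.09). For Dag1 the same fits gave 0.09 (SE 0.09) and 0.30 (SE 0.09), against 0.63 without them. Sgcb stood at -0.16 (SE 0.05) and -0.14 (SE 0.04). Dmd went to -0.07 and -0.12, and Dtna to -0.01 and 0.01. Utrn, whose transcript is the second longest of the 9, went to -0.04 (SE 0.06) and -0.39 (SE 0.14), so the 2 ways of removing a length effect gave different values for it. With the slope as covariate 7 of the 9 genes had negative values, against 3 without it. In that fit no gene of 16303 passed an FDR of 0.05, although 1865 had an unadjusted p under 0.05.

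The name form of the libraries gave a second way to split the mice. Among the 15 SAMP8-named libraries the log2 fold change of Sspn was -0.52 (SE 0.12), and among the 6 SAMP-named libraries it was -0.36 (SE 0.19). Dag1 stood at 0.67 (SE 0.21) and 0.26 (SE 0.23), and Sgcb at -0.27 (SE 0.06) and -0.05 (SE 0.13). All 3 kept their sign within both forms, and no gene passed an FDR of 0.05 within either form (edgeR), with 5797 and 532 genes at an unadjusted p under 0.05.

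Sex was not used in choosing the genes and could be tested. No member of the complex differed between females and males at an FDR of 0.05, where 0.0552% of all genes did (0.0245% higher and 0.0307% lower in females, 9 of 16303, edgeR), although 1765 genes had an unadjusted p under 0.05. Dmd, which lies on the X chromosome, had a female over male log2 difference of 0.06 (SE 0.09, adjusted p = 0.73, edgeR). Sntb1 stood at 0.42 (SE 0.22, adjusted p = 0.45, edgeR) and Dag1 at 0.30 (SE 0.17, adjusted p = 0.45, edgeR). Sspn stood at -0.13 (SE 0.09, adjusted p = 0.47, edgeR). Among PBS mice Sspn averaged 6.46 ± 0.697 CPM in 6 females and 6.75 ± 1.18 CPM in 6 males.

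The treatment difference was then compared between the sexes. The 3 HsTX1[R14A] females had Sspn levels of 4.03, 4.27 and 4.35 CPM, all below the lowest of the 6 PBS females at 5.58 CPM. The 6 HsTX1[R14A] males ran from 4.15 through 4.98 to 5.64 CPM and the 6 PBS males from 4.84 through 7.38 to 7.61 CPM. The log2 fold change of Sspn was -0.61 (SE 0.15) in females and -0.45 (SE 0.12) in males, and the difference between these, -0.16 (SE 0.18), had an adjusted p of 1.00 (edgeR interaction term). Sgce showed the widest gap relative to its error, with -0.28 (SE 0.10) in females and -0.01 (SE 0.08) in males, an interaction of -0.27 (SE 0.13) whose unadjusted p of 0.0517 from the same edgeR fit became 1.00 after adjustment. For the other 7 genes the interaction lay between -0.13 and 0.15. Over all genes 0 of 16303, or 0.0%, passed (270 at an unadjusted p under 0.05), and DESeq2 also called 0, with 302 at an unadjusted p under 0.05. Only 3 treated females entered this test.

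Among the 12 PBS mice alone, which share a treatment, the 9 genes differed in how closely they tracked the length slope of the library. Over all genes 55.3% passed an FDR of 0.05 in this test (100000 permutations, two-sided), 29.5% with a positive and 25.8% with a negative sign, and 5 of the 9 did so, all with a positive sign. Dag1 had a Pearson r of 0.93 (Spearman rho 0.92, permutation p = 3e-05, adjusted p = 0.000183), above 90.6% of all genes. Dtnb had r = 0.90 (rho 0.92, permutation p = 6e-05, adjusted p = 0.000303). Dtna (r = 0.80, rho 0.66), Dmd (r = 0.73, rho 0.55) and Utrn (r = 0.64, rho 0.63) followed, with adjusted permutation p of 0.00510, 0.0161 and 0.0463. By rank Dmd and Utrn did not pass (adjusted permutation p 0.123 and 0.0631). The call of Utrn was lost in all 4 other settings, with r = 0.65 in the SAMP8-named libraries, 0.67 without the 2 mice of most extreme slope, 0.59 with RLE scaling and 0.44 in the HsTX1[R14A] mice (adjusted permutation p 0.0729, 0.0950, 0.0728 and 0.355). Sspn had r = -0.22 (rho -0.30, permutation p = 0.489, adjusted p = 0.571), and Sgcb, Sgce and Sntb1 had r of -0.53, -0.51 and 0.38 with adjusted permutation p of 0.115, 0.144 and 0.294.

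Part of this rested on the mice with the most extreme slopes, PBS female 103 at -0.38 and PBS male 90 at -0.34. Female 103 was the lowest PBS mouse for Dmd, Utrn, Dag1, Dtna and Dtnb and the highest for Sgce. Without the 2 mice farthest from the median slope, Dag1 kept r = 0.89 (adjusted permutation p = 0.00661) and Dtnb r = 0.77 (adjusted permutation p = 0.0371). Utrn stood at r = 0.67, Dtna at 0.55 and Dmd at 0.17, none of them past the threshold, and Sspn stood at 0.09 and Sgce at 0.35, on the other side of 0. Within the 10 SAMP8-named PBS libraries, r was 0.94 for Dag1, 0.93 for Dtnb and -0.11 for Sspn. In the 9 HsTX1[R14A] mice Dag1 had r = 0.97 (exact permutation p = 0.000201) and Sspn r = -0.41 (exact permutation p = 0.283). By rank in these mice Dag1 had rho 0.88 and Sspn rho -0.70 (exact permutation p = 0.043, adjusted p = 0.121 for Sspn).

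**Figure D3:**
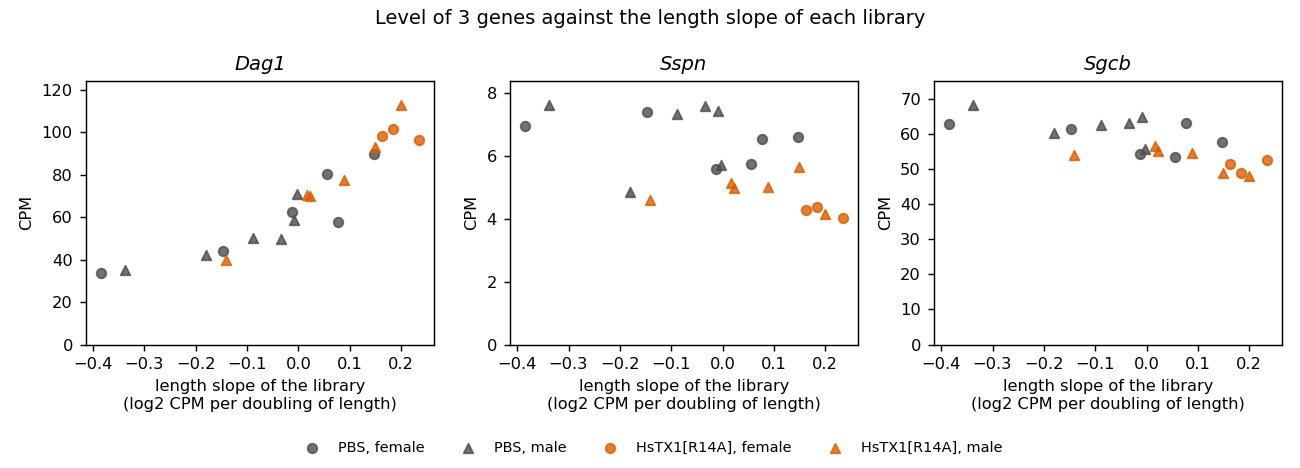
Level in CPM (vertical axes, from 0) of Dag1, Sspn and Sgcb against the length slope of the library (horizontal axes, log2 CPM per doubling of transcript length), 1 point per mouse, with circles for females and triangles for males. The points of Dag1 follow 1 rising band in both arms (r = 0.93 in PBS mice and 0.97 in HsTX1[R14A] mice). For Sspn all 9 HsTX1[R14A] mice lie below the PBS median. The median slope of the HsTX1[R14A] mice (0.1498) is just above the highest PBS slope (0.147). Most HsTX1[R14A] mice thus lie above every PBS mouse in slope, some of them only slightly.

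The genes were also set against each other within the PBS mice. Among 36 pairs, 23 had a positive and 13 a negative r, and 13 had an unadjusted permutation p under 0.05. Of these, 2 pairs passed an FDR of 0.05 over all genes from both sides, Dag1 with Dtnb (r = 0.89, rho 0.90, permutation p = 0.00017, adjusted p = 0.000997 and 0.00157) and Dtna with Dtnb (r = 0.72, rho 0.59, permutation p = 0.00833, adjusted p = 0.0301 and 0.0222). By rank Dag1 with Dtnb also passed (adjusted permutation p 0.00178 and 0.00309), and Dtna with Dtnb did not (0.119 and 0.0940). No share over all pairs of genes was counted at the unadjusted threshold, so nothing is read from 13 of 36. Dag1, Dtnb and Dtna also correlated with a large share of all others, since 50.3% of 16302 genes passed with Dag1, 47.9% with Dtnb and 36.1% with Dtna. With the length and GC trend removed neither pair passed, at r = 0.61 for Dag1 with Dtnb (adjusted permutation p 0.286 and 0.113) and r = 0.08 for Dtna with Dtnb (adjusted permutation p 0.984 and 0.891). In that setting Utrn with Dtnb turned from r = 0.75 to r = -0.78 and passed from both sides (adjusted permutation p 0.0102 and 0.0221). In the 9 HsTX1[R14A] mice the r of Dag1 with Dtnb was 0.40 (adjusted exact permutation p = 0.402).

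Sspn had no correlation with another member that passed the threshold over 12 mice. Its r was -0.32 with Dag1, -0.30 with Dtnb, 0.17 with Dtna and -0.08 with Dmd. It lay nearer to Sgcb (r = 0.70, rho 0.80, permutation p = 0.0117), Sntb1 (r = 0.60) and Sgce (r = 0.50), none of which passed after adjustment over all genes (adjusted permutation p 0.474, 0.568 and 0.663). For Sspn, Dmd, Utrn, Sntb1, Sgcb and Sgce the share of genes that passed was 0.0%. The smallest permutation p that the draws can give is 1e-05. Over 16302 genes a gene at that floor passes only if several share it, so these shares depend partly on the number of draws.

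Of 16302 other genes, the one with the highest r with Sspn over the PBS mice was Aqp4, the water channel of astrocyte endfeet that the complex anchors. The r was 0.95 (rho 0.92), with a permutation p of 1e-05, the smallest that these draws can give, and an adjusted p of 0.130. A single gene at this p cannot pass over 16302 genes. For Sspn 4 PBS mice lay between 4.84 and 5.73 CPM and the other 8 between 6.52 and 7.61 CPM, and Aqp4 ran from 141 to 238 CPM in the same mice. Aqp4 stayed the gene with the highest r without the 2 mice whose Sspn level lay farthest from its median (r = 0.95), within the SAMP8-named libraries (r = 0.94) and with the length and GC trend removed (r = 0.95), with adjusted permutation p from 0.116 to 0.342. In the 9 HsTX1[R14A] mice the r was 0.05 (exact permutation p = 0.899), and 7795 genes had a higher one. The difference between these correlations was not tested. F3, the coagulation initiator tissue factor (r = 0.93), and Bmpr1b, a receptor of bone morphogenetic proteins (r = 0.92), came next after Aqp4. Kcnj10, the potassium channel of the same endfeet, had r = 0.18 with Sspn.

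**Figure D4:**
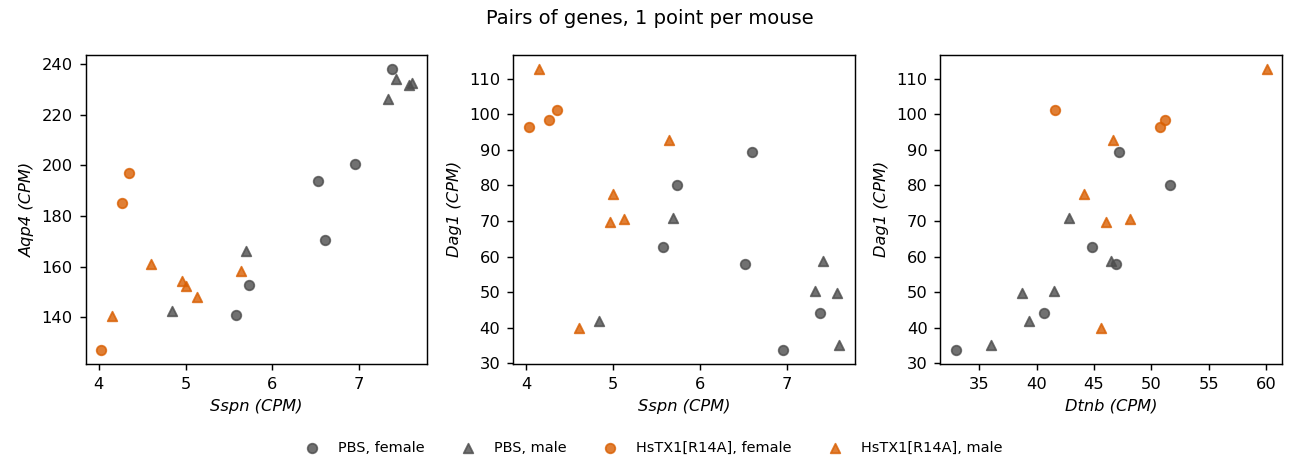
Levels in CPM of Sspn against Aqp4, Sspn against Dag1 and Dtnb against Dag1, 1 point per mouse, with axes that do not start at 0. Sspn and Aqp4 line up in the PBS mice (r = 0.95) and not in the HsTX1[R14A] mice (r = 0.05), and Dtnb and Dag1 line up in the PBS mice (r = 0.89).

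The genes most like the other members over the PBS mice were named by the same measure. Dag1 was closest to Coro7 and Trappc9 (r = 0.99 for both), Dtnb to Pde2a, Chst15 and Actn1 (0.96, 0.96 and 0.95) and Dtna to Zfp36l1, Fyco1 and Pak4 (0.97, 0.96 and 0.96). Dmd was closest to Dpp8, RP23-153H17.5 and Psd3 (0.95, 0.94 and 0.94), and Utrn to Mex3c, 9430020K01Rik and Dlg2 (0.90, 0.89 and 0.87). Sgcb was closest to Bche, Cyp2j12 and Kif5b (0.94, 0.93 and 0.93), Sgce to Tfb1m, Sdr42e1 and Krt1 (0.95, 0.92 and 0.91) and Sntb1 to Rbl2, Lrrc1 and Tgfbi (0.90, 0.90 and 0.88). By rank the values of Sgce were lower, with rho 0.68 for Tfb1m, 0.90 for Sdr42e1 and 0.62 for Krt1. Of these relations, those of Dag1, Dtna and Dtnb passed after adjustment and the others did not, within the limit that the number of draws sets. With the length and GC trend removed, Dag1 was closest to Kdm4b, Ext2 and Armcx4, and Dtna to Nfe2l2, Mlxipl and mt-Cytb. None of these passed (adjusted permutation p from 0.093 for Dag1 and from 0.272 for Dtna). Actn1 stayed close to Dtnb (r = 0.96, adjusted permutation p = 0.00627). Utrn was then closest to Eif4g2 (r = 0.99, adjusted permutation p = 0.000622).

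Genes outside the 9 that belong to the same pathway were tested for treatment across all genes. Their lists were made with earlier results of these data known, so the shares below are not blind to this contrast. In all, 4 lists gave 44 genes in the table. Of the 44, 13 rose, 5 fell and 26 did not pass (edgeR, FDR 0.05), a share of 40.9% beside the 31.6% of all genes, with a median log2 fold change of 0.16 beside -0.01. With the length slope as covariate 0 of the 44 passed (edgeR).

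Of 6 further subunits, 3 rose and 0 fell. Sgcd (delta-sarcoglycan) rose from 0.783 ± 0.290 CPM (SD, n = 12) to 1.22 ± 0.222 CPM (n = 9), a log2 fold change of 0.63 (SE 0.20, adjusted p = 0.0259, edgeR), the opposite sign to Sgcb and Sspn. Sntb2 (beta-2-syntrophin) rose by 0.36 (SE 0.13, adjusted p = 0.0477, edgeR). The call of Sgcd was lost without HsTX1[R14A] 72 or PBS 90, and that of Sntb2 without any of 11 mice (HsTX1[R14A] 71, 72, 74, 81, 89, 92 and 98, PBS 73, 90, 91 and 104), with adjusted p from 0.0507 upward and the sign kept. In the other fits the call of Sgcd was lost in 4 of 10 and that of Sntb2 in 6 of 11, with values down to 0.09 for Sgcd (SAMP-named libraries alone) and 0.08 for Sntb2 (trend removed).

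Of 16 enzymes that build the laminin-binding sugar chain on alpha-dystroglycan, 2 rose and 3 fell, a share of 31.2% beside the 31.6% of all genes, and the median was -0.03. Pomt1, which starts the chain with mannose, rose by 0.43 (SE 0.12, adjusted p = 0.0199, edgeR). Dpm3, a subunit of the enzyme that makes the mannose donor, fell by 0.64 on the log2 scale (SE 0.18, adjusted p = 0.0194, edgeR), and Tmem5 (Rxylt1), a xylose transferase of the chain, fell by 0.47 (SE 0.13, adjusted p = 0.0186, edgeR). Each of these 3 calls was lost in 3 of 11 other fits, and with the slope as covariate the log2 fold changes were 0.07 for Pomt1, -0.08 for Dpm3 and -0.10 for Tmem5.

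Of 14 extracellular ligands of dystroglycan, 3 rose and 0 fell, a share of 21.4% that is below the 31.6% of all genes, with 12 of 14 on the positive side and a median of 0.51. Nrxn2, a presynaptic neurexin, had a log2 fold change of 0.67 (SE 0.19, adjusted p = 0.0213, edgeR) and Lamb1, a laminin beta chain, 0.54 (SE 0.15, adjusted p = 0.0190, edgeR). Both calls were lost in 4 of 11 other fits, with Nrxn2 at 0.05 and Lamb1 at 0.15 with the slope as covariate and at 0.0043 and 0.21 with the trend removed. Of 8 membrane and synaptic partners, 5 rose and 2 fell, a share of 87.5% beside the 31.6% of all genes. Nos1, the neuronal nitric oxide synthase, ran from 6.84 through 28.9 to 56.8 CPM in PBS mice and from 19.6 through 56.6 to 114 CPM in HsTX1[R14A] mice, which is 1.24 on the log2 scale (SE 0.34, adjusted p = 0.0186, edgeR). Ank2, an ankyrin, rose by 0.62 (SE 0.17, adjusted p = 0.0188, edgeR). Cav1, the caveolar coat protein of vessels, fell by 0.25 (SE 0.07, adjusted p = 0.0212, edgeR). Within each sex Cav1 stood at -0.07 (SE 0.11) in females and -0.37 (SE 0.09) in males. The interaction of 0.30 (SE 0.14) had an unadjusted p of 0.0374 (edgeR) and did not pass after adjustment. The calls of Nos1, Ank2 and Cav1 were lost in 3, 4 and 5 of 11 other fits. With the slope as covariate Nos1 stood at 0.26 and Ank2 at 0.06, and with the trend removed Nos1 stood at 0.76, Ank2 at 0.13 and Cav1 at -0.05.

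Aqp4 fell by 0.30 on the log2 scale (SE 0.11, adjusted p = 0.0477, edgeR), from 194 ± 38.3 to 158 ± 21.5 CPM. All 9 HsTX1[R14A] mice were below the PBS median, as for Sspn, the highest of them at 197.1 against 197.2 CPM. Within each sex the log2 fold change of Aqp4 was -0.11 (SE 0.18) in females and -0.43 (SE 0.14) in males. The interaction of 0.33 (SE 0.22) had an unadjusted p of 0.162 (edgeR). The call is at the edge of the threshold, since it was lost in 8 of 11 other fits (limma/voom among them, adjusted p = 0.0524) and when any of 13 of the 21 mice was left out (HsTX1[R14A] 74, 81, 88, 89, 92 and 98, PBS 73, 82, 83, 85, 90, 91 and 103), with adjusted p from 0.0519 to 0.855 and the sign kept in each. Kcnj10 stood at 0.10 (SE 0.15, adjusted p = 0.60, edgeR), from 325 ± 81.2 to 341 ± 78.8 CPM, and had a negative sign with the slope as covariate. The marker counts that follow stand beside 16.1% of all genes called lower and 15.5% called higher, and each list is short. Of 6 astrocyte markers, Aqp4 among them, 3 fell and 0 rose, with a median log2 fold change of -0.14. Their summed level ran from 1531 to 2339 CPM in PBS mice and from 1438 to 1989 CPM in HsTX1[R14A] mice, with no marker at 0. Of 7 mural cell markers, 1 rose and 0 fell (109 to 135 and 106 to 129 CPM), and of 6 endothelial markers, 1 rose and 0 fell (52.3 to 112 and 66.6 to 125 CPM). Of 5 oligodendrocyte markers 2 fell (3460 to 4965 and 2502 to 3893 CPM), of 5 microglial markers 1 fell (327 to 468 and 275 to 411 CPM), and of 6 neuronal markers 1 rose (3649 to 6363 and 4519 to 7416 CPM). The 5 markers of leptomeningeal fibroblasts, none of them called, had the lowest median log2 fold change of these lists at -0.39, and the median of their summed level was 53.3 CPM in PBS mice (25.8 to 88.85) and 28.7 CPM in HsTX1[R14A] mice (20.3 to 86.6). The summed level of 4 choroid plexus markers ran from 66.8 to 1113 CPM and from 56.4 to 821 CPM. The part of these cell types in the levels of Sspn and Aqp4 was not tested.

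**Figure D5:**
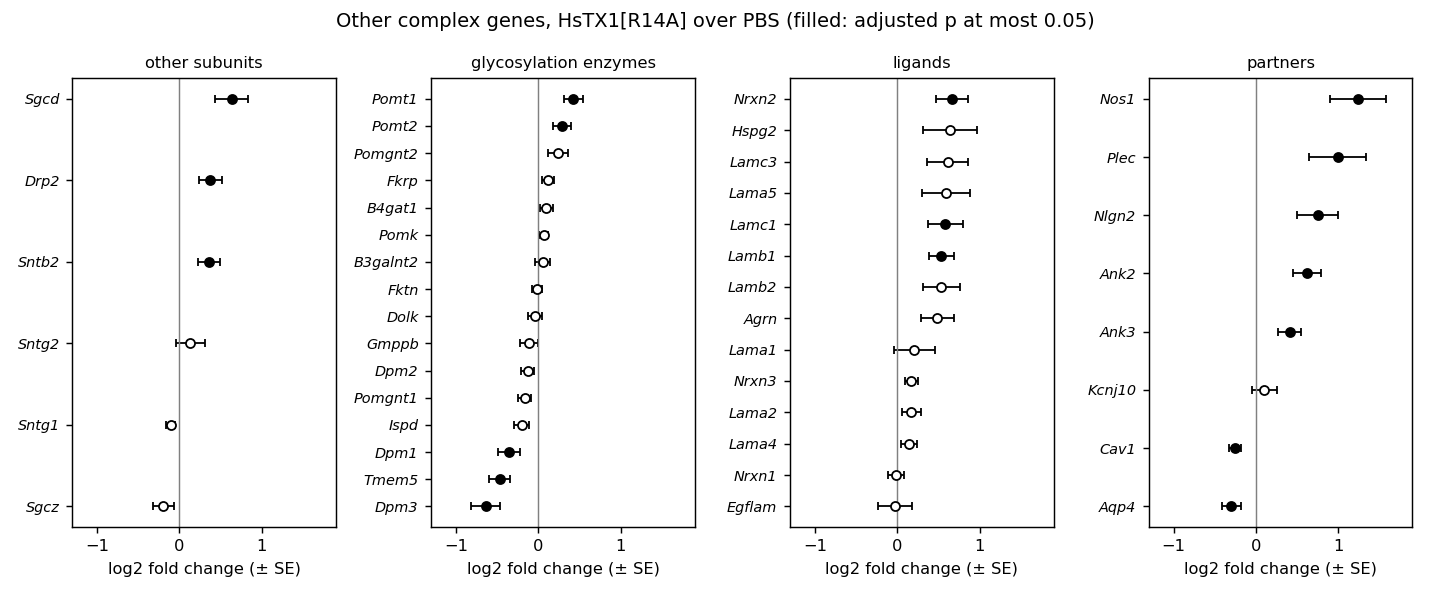
Treatment difference, HsTX1[R14A] over PBS, on a log2 scale (horizontal axes, ± SE) for the 44 other genes of the complex in 4 lists, with filled circles for an adjusted p of at most 0.05. Nos1 has the largest value at 1.24, Dpm3 the lowest at -0.64, and 12 of 14 ligands lie above 0.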

How the data were processed

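Total RNA from 21 whole brains was sequenced with 1 library per mouse. The deposited values are estimated counts per gene, made by the authors with STAR (GRCm38) and Salmon and left without normalization, for 16318 genes. They were rounded before use, 90.496% being within 0.01 of an integer. The table's other 53 columns of values per sample (37 CPM, 16 counts of other libraries) and the authors' own comparisons (fold change, p-value, FDR, mean expression) were not used. In the study itself, Degust ran limma/voom after removing the effect of sex. The library kit is given differently in the labels and in the study's methods, so whether counting used strand is unsure.

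Genes passing filterByExpr by treatment and sex (16303) were given TMM factors, and edgeR 4.0.16 in R 4.3.3 was used for the tests (glmQLFit, glmQLFTest, sex and treatment), adjusted by Benjamini and Hochberg's method at an FDR of 0.05. CPM are TMM scaled, and log2 CPM carry a prior count of 2. Lengths came from GENCODE for GRCm38 (99.5% of genes), upstream sequences from RefSeq. The separation of animals is taken from the labels' mouse numbers. Correlations used 100000 permutations, or all orders for 9 mice. With 9 or 12 mice per arm, the spread between mice sets the precision. The fits and permutation tests were tested on simulated data.

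The members and gene lists were chosen with earlier results of these data known. Named by rule were all 9 members, Aqp4, Kcnj10 and Nos1, the 2 smallest p-values per direction among called genes of each list, and the 3 genes with the highest r per member where the mean log2 CPM was 1 or more. Some genes of these lists are not reported here and are left out of the list counts. Alternatives were limma 3.58.1 with voom, DESeq2 1.42.0, RLE scaling, 2 other filters (at least 1 count in total, at least 10 in every mouse), no sex term, name form or length slope as covariate, removal of a loess trend (span 0.5) on length and GC, the SAMP8-named libraries alone, and each mouse left out. The SAMP-named libraries alone was added after seeing the data.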

Additional observations from a re-analysis of the deposited data

How the results depend on the processing

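The number of genes past the FDR for treatment, 5144, was 0 with the length slope as covariate and 0 within either name form, 1999 with the name form as covariate, 2499 with the length and GC trend removed and 2984 without the sex term. With 1 mouse left out it ran from 2289 (without PBS 90) to 6614 (without HsTX1[R14A] 93), and it was 3005 without HsTX1[R14A] 98. Of the other complex genes, 18 passed, against 0, 0 and 0 in the same first 3 fits, 7 with the name form as covariate, 6 with the trend removed, 9 without the sex term, and 8 (without PBS 90) to 23 (without HsTX1[R14A] 93) with 1 mouse left out. That count was 11 or lower without PBS 73, 90 or 91 or HsTX1[R14A] 72, 74, 81, 88 or 98. The number of members with a lower level, 3, was 7 with the slope as covariate and 3 to 4 with 1 mouse left out. Of 288 member values in these alternatives, 279 kept their side of 0, among them all 32 each of Sspn, Sgcb, Dag1 and Dtnb. Sspn ran from -0.57 to -0.36. Kcnj10 turned to -0.31 with the slope as covariate and -0.11 with the trend removed, both uncalled. The members called for sex or interaction were 0 in every alternative, each mouse left out included. The members that followed the length slope, 5, were 2 without the 2 mice farthest from the median slope and 2 in the 9 HsTX1[R14A] mice. The pairs of members past the threshold, 2, were 1 without the 2 mice farthest from the median level of the first gene (Dag1 with Dtnb), 1 with the trend removed (Utrn with Dtnb, not among the 2, at r = -0.78) and 0 in the 9 HsTX1[R14A] mice. The fits by name form or without mice hold fewer samples, and for the rest the cause was not tested. No paired analysis was possible because every mouse has its own number and the labels give no cage, the unit within which the study randomized the arms. Sgcd has no value with at least 10 counts in every mouse. At the lowest member count of 24, Sntb1 is limited by depth more than the others.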
